A study of Rattus norvegicus with 9 samples.

Results

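The Hox genes of rat adipose tissue libraries were examined as markers of body position. They were all genes in the deposited tables whose name is Hoxa, Hoxb, Hoxc or Hoxd followed by a number only, which gave 39 of the 32883 genes listed. Of these, 11 belong to the Hoxa cluster on chromosome 4, 10 to the Hoxb cluster on chromosome 10, 9 to the Hoxc cluster on chromosome 7 and 9 to the Hoxd cluster on chromosome 3 of the rat assembly GRCr8 in RefSeq, where all 39 names were found. The study sequenced RNA of retroperitoneal fat of wild-type male Wistar rats at day 31 and asked whether an anthocyanin-rich black bean extract changes the gene expression of fat in diabetic animals. The healthy group (HE, replicates 2, 3 and 4) had a standard diet and an injection of citrate buffer alone. The diabetic group (DB, replicates 1, 2 and 6) had a high fat diet, 1 injection of streptozotocin at 25 mg/kg, a toxin of pancreatic beta cells, and water by gavage. The extract group (BB, replicates 1, 4 and 8) had the same diet and streptozotocin with the extract by gavage at 260 mg/kg/day. DB therefore differs from HE in diet and toxin together, and also in the gavage, which is not described for HE. The parts of these cannot be told apart, while BB differs from DB in the extract. The age of the rats is not given in the sources used here.

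Hox genes encode homeodomain transcription factors that give cells their place along the head to tail axis. Within each cluster they are numbered from the 3′ end, and low numbers (the anterior genes) are switched on early and far forward in the embryo, high numbers (the posterior genes) later and towards the tail. Adult mesenchymal tissues keep much of this pattern, and in mouse and human white fat depots at different places carry different sets of active Hox genes. Head tissues are formed in front of the Hox domain and use other homeobox genes such as Otx2 and Pax6.

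The clusters also hold microRNA genes, and their mature sequences are shown because miR-10 and miR-196 are known to act on Hox transcripts and because Mir615 alone of these 6 had more than a few reads. The sequences are from RefSeq (GRCr8), 5′ to 3′, with the seed (bases 2 to 8) in capitals.
rno-miR-10a-5p: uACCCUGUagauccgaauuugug
rno-miR-10b-5p: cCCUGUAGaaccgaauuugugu
rno-miR-196a-5p: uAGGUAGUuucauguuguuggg
rno-miR-196b-5p: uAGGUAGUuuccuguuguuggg
rno-miR-196c-5p: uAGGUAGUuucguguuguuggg
rno-miR-615: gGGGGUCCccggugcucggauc
The 3 miR-196 RNAs share 1 seed. The listed miR-10b-5p starts further along than miR-10a-5p, so that its seed letters CCUGUAG stand at base 2 of miR-10b-5p and at base 4 of miR-10a-5p. The miR-10a-5p sequence lies at chr10:81779730-81779752 (plus strand) between Hoxb5 and Hoxb4, and that of miR-10b-5p at chr3:80035886-80035907 (plus strand) inside the span of Hoxd4. In the Hox9 to Hox13 part of the clusters, miR-196a-5p lies at chr7:135988900-135988921 (plus strand) between Hoxc10 and Hoxc9, miR-196b-5p at chr4:82661149-82661170 (minus strand) between Hoxa9 and Hoxa10, and miR-196c-5p at chr10:81727561-81727582 (plus strand) between Hoxb13 and Hoxb9. The sequence of miR-615 lies at chr7:136030369-136030390 (plus strand) within the annotated spans of both Hoxc5 and Hoxc6.

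Values are normalized read counts, each the number of reads divided by 1 factor per library, with no correction for gene length. Depth was 2771967 to 3542749 reads in 8 libraries, where 1 read is worth a value of 0.672 to 0.913. BB replicate 8 stood apart, with 12267084 reads of which 76.5% fell on its 10 largest genes (10.2% to 19.2% elsewhere), no reads for 15583 genes (631 to 894 elsewhere) and a value of 14.6 per read. Its log2 values correlated with those of the other libraries at 0.577 to 0.594 across genes, against 0.961 to 0.969 among the other 8. It is therefore given apart, and groups were compared with the other 8 libraries. Only the numbers in the labels speak for separate rats, so the spread behind each p-value may be technical.

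The fat label could not be told from the ranks of marker genes. Adipocyte markers had a median percentile of 73.2 among all genes by value (24 genes, all with reads in all 8 libraries, summed value 2165 to 2611), close to the 75.3 of hepatocyte markers (22 genes, 2219 to 3178) and below the 80.3 of kidney and adrenal markers (15 genes, 2150 to 2466). The means of the 24 adipocyte markers ran from 11.8 to 356 with a median of 69.2, and 16 had reads in BB replicate 8. Adipoq, which encodes the fat hormone adiponectin, had values of 58.4 to 71.2 in the 8 libraries. Fabp4, the fatty acid carrier of fat cells, had only 8.10 to 14.6, and both had no reads in BB replicate 8. Neither is among the largest of the list. The names of the data columns end in H and those of the samples in TA, neither of which is explained, and columns were matched to samples by group and rat number. Which tissue the columns hold thus rests on the labels and the study's methods and could not be settled from the values.

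All 39 Hox genes had reads in each of the 8 libraries, as did all 1130 genes of olfactory receptors, the odour sensors of the nose. Per library, 1.92% to 2.72% of all genes had no reads. Together the 39 made up a small and steady part of the libraries. The summed Hox value was 1288, 1595 and 1370 in HE, 1438, 1464 and 1431 in DB and 1362 and 1429 in BB replicates 1 and 4. HE alone spans the values of both other groups, and HE replicate 3 is the highest library. The means were 1418 ± 159 (SD, n = 3) in HE, 1444 ± 17.5 (SD, n = 3) in DB and 1396 ± 47.7 (SD, n = 2) in BB, so the differences are smaller than the spread in HE. In reads this was 1575 to 1918 per library, or 0.0541% to 0.0609% of all reads. In BB replicate 8 it was 2883 reads, 0.0235% (95% Wilson interval 0.0227% to 0.0244%, counting error only).

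The members' means over the 8 libraries ran from 7.74 (Hoxd12) to 204 (Hoxa13), with a median of 25.5. Hoxa13, the most posterior gene of its cluster, which shapes the end of the limbs and the lower urogenital tract, had the largest normalized value of all 39 in every one of the 8 libraries. It stood at 193, 288 and 245 in HE, 166, 198 and 179 in DB and 169 and 192 in BB. The HE and DB values overlap narrowly, and both BB libraries lie below HE by a narrow gap, from 191.65 to 192.77. Hoxa11, which patterns the forearm, the kidney and the uterus, had 32.9, 77.8 and 43.7 in HE, 84.0, 81.0 and 71.8 in DB and 45.2 and 58.0 in BB. HE replicate 3 lies among the DB libraries and the other 2 HE libraries lie below all of them. Hoxa2, the selector of the second pharyngeal arch in mouse, was even, with 59.1, 61.7 and 64.0 in HE, 51.1, 59.9 and 53.1 in DB and 56.8 and 71.7 in BB. The other 8 Hoxa genes had means of 10.3 (Hoxa5) to 53.3 (Hoxa6).

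In the Hoxb cluster, Hoxb3, a hindbrain and neck gene, was the largest. Its values were 45.0, 87.9 and 47.6 in HE, 76.7, 92.3 and 77.0 in DB and 61.5 and 66.8 in BB. As for Hoxa11, HE replicate 3 was as high as the DB libraries and the other HE libraries were lower than both. Hoxb4, known for its part in the renewal of blood stem cells, had 34.3, 38.0 and 39.0 in HE, 41.1, 32.4 and 40.4 in DB and 35.8 and 41.9 in BB, with no gap between groups. Hoxb13, the tail end of its cluster and a gene of the prostate, had 25.5, 44.0 and 24.2 in HE, 26.5, 31.6 and 25.4 in DB and 34.3 and 34.6 in BB. The other 7 Hoxb genes had means of 7.81 (Hoxb6) to 29.8 (Hoxb5).

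The Hoxc genes had the narrowest range of values of the 4 clusters, with means from 10.97 (Hoxc13) to 44.4 (Hoxc4). Hoxc4, the first gene of this cluster, had 47.0, 40.6 and 49.2 in HE, 50.2, 44.5 and 41.1 in DB and 38.9 and 43.5 in BB. Hoxc8, a gene of the chest region, had 38.3, 61.7 and 39.8 in HE, 33.8, 42.1 and 35.9 in DB and 47.5 and 38.7 in BB, where only HE replicate 3 stands out. Hoxc6, its neighbour in the chest region, had 24.2, 34.7 and 29.7 in HE, 24.7, 36.4 and 32.9 in DB and 30.4 and 33.0 in BB. In the Hoxd cluster, Hoxd10, which guides the motor neurons of the hindlimb, had 107, 131 and 97.6 in HE, 128, 114 and 120 in DB and 121 and 116 in BB. Hoxd4, a gene of the hindbrain and neck vertebrae, had 86.0, 85.4 and 89.7 in HE, 117, 89.9 and 103 in DB and 95.0 and 101 in BB, all 5 of the latter above all HE libraries. Hoxd13, which patterns the digits, had 61.1, 61.7 and 51.5 in HE, 53.9, 51.8 and 56.1 in DB and 63.8 and 59.6 in BB. The remaining 6 Hoxd genes had means of 7.74 (Hoxd12) to 30.7 (Hoxd3).

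**Figure D1:**
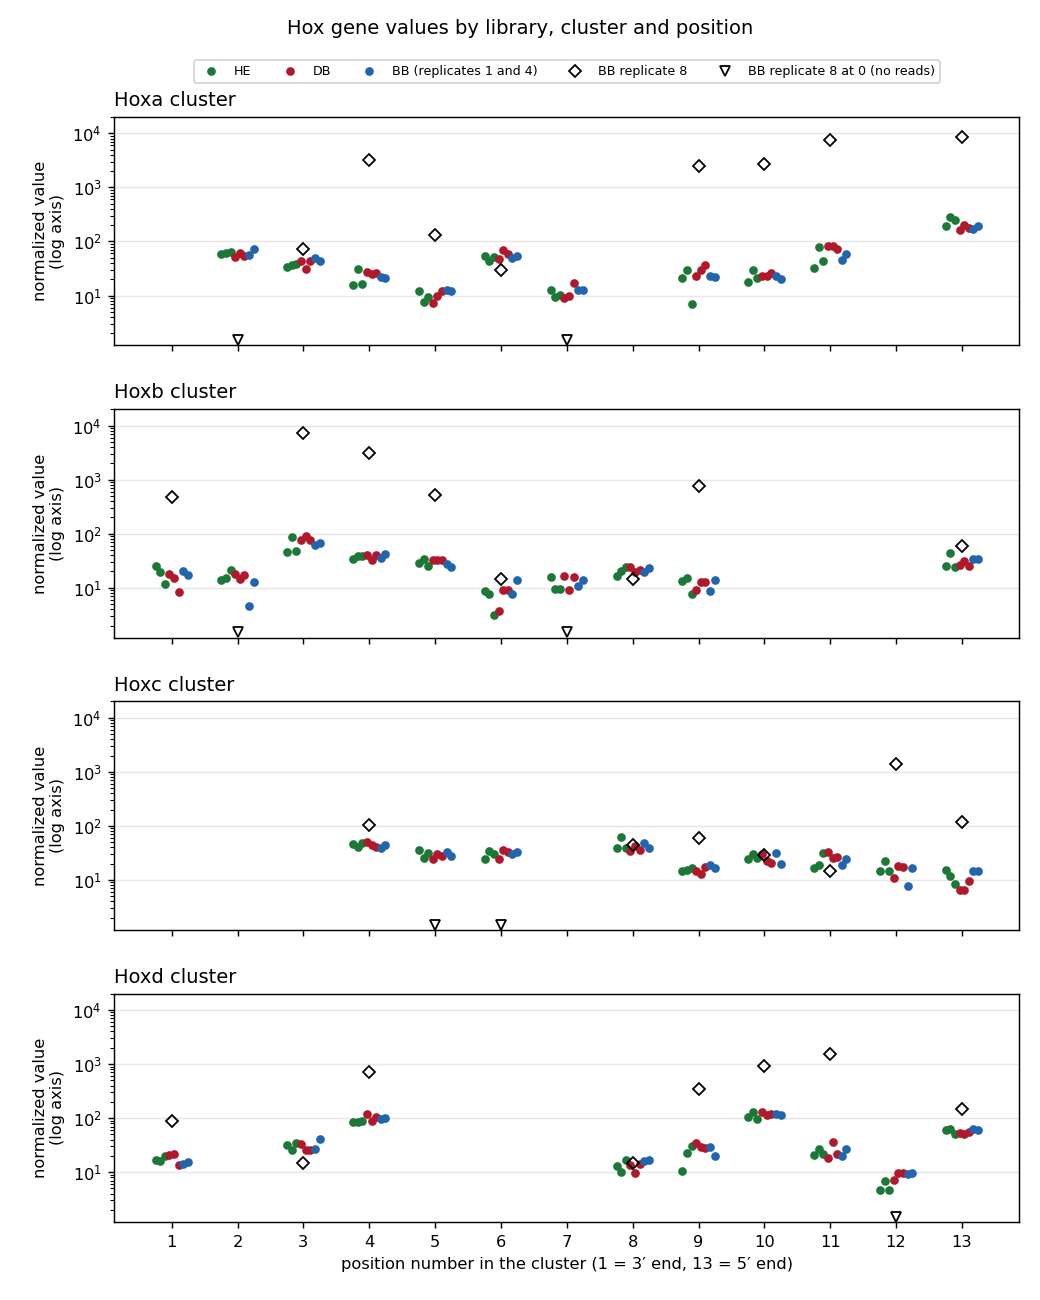
Normalized value (log axis) of 38 of the 39 Hox genes against its position number in the cluster, 1 panel per cluster, with 1 filled point per library of HE, DB and BB replicates 1 and 4 and an open symbol for BB replicate 8. Values of the 8 libraries stay between 3.12 and 288 with no common slope from position 1 to 13, while open diamonds reach 8400 and open triangles mark genes without reads in BB replicate 8.

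There was no common ordering by position. The 8 anterior members (positions 1 to 3) had a median value of 31.0, the 15 central ones (4 to 8) of 29.6 and the 16 posterior ones (9 to 13) of 24.2. Across genes, the correlation of the log2 mean with the position number was -0.00494 (Pearson) and -0.087 (Spearman) over all 39. By cluster, Pearson's r was 0.347 for Hoxa (11 genes), -0.106 for Hoxb (10), -0.801 for Hoxc (9) and -0.0385 for Hoxd (9). Only in Hoxc were values clearly lower towards the tail end. These are descriptions across genes, which share libraries and are no replicates, and longer genes collect more reads.

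Levels of different genes were compared per kilobase of gene span in GRCr8, introns included, since exon lengths were not used here. On this scale too Hoxa13 was the highest of the 39 at 95.3 per kb, followed by Hoxd10 at 36.4 and Hoxa6 at 21.9. Genes of the same position number in different clusters arose from 1 ancestor and have related proteins, yet their levels differed. In group 13, Hoxa13 had 95.3 per kb, Hoxd13 17.3, Hoxb13 13.5 and Hoxc13 1.60, the last with a span of 6.84 kb against 2.14 to 3.32 kb for the others. In group 4, Hoxc4 had 17.5, Hoxb4 14.7, Hoxa4 11.5 and Hoxd4 4.90, the last with a span of 19.6 kb against 2.01 to 2.58 kb for the others. Over the 28 members with a span under 5 kb, the correlation of the log2 level per kb with position was 0.251 (Pearson) and 0.198 (Spearman), and by cluster it was 0.61 in Hoxa (7 genes), 0.0723 in Hoxb (8), -0.507 in Hoxc (6) and 0.304 in Hoxd (7, all Pearson).

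By level the Hox genes lay a little below the middle of all genes. Over all genes their median percentile by value was 45.3, below the 58.6 of 18 homeobox genes of the head and above the 37.1 of 1130 genes of olfactory receptors, the odour sensors of the nose. The order changed per kb among coding genes with spans under 5 kb. There the 28 Hox genes had a median of 11.5 per kb (2.65 to 95.3), the 7 head homeobox genes 9.81 (1.62 to 25.4), the 1058 olfactory receptor genes 18.2, and all 3691 such genes 13.4. The 5 adipocyte markers with such spans had 12.4 (2.50 to 21.9), at percentile 45.4. The Hox median was at percentile 41.0 of these genes, the head homeobox median at 32.5 and the olfactory receptor median at 68.7. The ranges of the Hox and head genes overlap. Of the genes next to the clusters, Evx1 and Evx2, homeobox genes beyond the Hoxa and Hoxd tail ends, had 8.18 and 6.78 per kb.

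**Figure D2:**
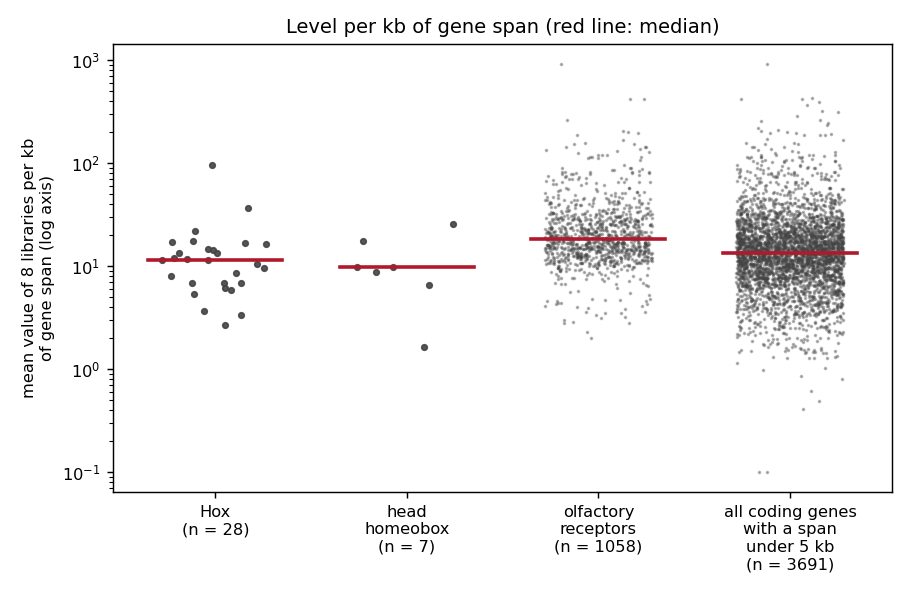
Mean value of the 8 libraries per kilobase of gene span (log axis) for coding genes with a span under 5 kb, with 1 point per gene and a red line at the median. The Hox median of 11.5 lies between those of the head homeobox genes (9.81) and of all such genes (13.4), and below that of olfactory receptor genes (18.2).

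For most Hox genes the 8 libraries differed by little more than counting error. The variance over the 8 libraries, with differences between groups included, was divided by the variance that counting reads alone would give. This ratio had a median of 1.27 over the 39 genes, against 1.32 over 24222 genes with as many reads (78 to 2062 in all). It was at or below 1 for 17 Hox genes and above 4 for 4 of them, Hoxa13 (10.5), Hoxa11 (8.13), Hoxb3 (5.76) and Hoxa9 (4.07). Hoxc9 (0.259), Hoxb4 (0.390) and Hoxb8 (0.420) were the steadiest. The unsteady genes are mostly the large ones, where counting error is small, but Hoxa9, a posterior gene known from leukaemia, had a mean of only 23.8. Its values were 20.8, 29.6 and 7.02 in HE, 22.8, 29.1 and 36.6 in DB and 22.6 and 21.7 in BB. It was picked with its values in view, as were the steady genes, and its reads are listed again under 2 other names, LOC103692128 and LOC103689925.

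Between DB and HE no Hox gene passed the test. With limma on log2(value + 1) and an adjusted p of 0.05 over all 32371 genes, 0 of 39 were called, where 0.677% of all genes were (108 higher and 111 lower in DB), and edgeR's quasi-likelihood test called 0 as well (0.748% of 27128 genes). At an unadjusted p under 0.05 there were 5 Hox genes by limma (12.8%, against 9.43% of all genes) and 3 by edgeR (10% of all genes). The smallest p belonged to Hoxa11, which was higher in DB by 0.70 on the log2 scale (SE 0.22, limma adjusted p = 0.206). Hoxa13 came next in the other direction, at -0.40 (SE 0.13, adjusted p = 0.251 in limma), and then Hoxb3 at 0.50 (SE 0.19, adjusted p = 0.372 in limma). The median log2 fold change over the 39 was 0.06, with 22 above 0, beside a median of 0.0053 over all genes, of which 50.9% were above 0. Groups did not overlap for 2 Hox genes, against 14.1% of all genes. Both were higher in DB (6.82% of all genes), Hoxd4 (values above) and Hoxd12, a limb gene, with 4.70, 6.76 and 4.68 in HE, 7.30, 9.72 and 9.72 in DB and 9.34 and 9.66 in BB. The gap for Hoxd4, from 89.75 in HE to 89.87 in DB, is narrower than 1 read is worth.

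**Figure D3:**
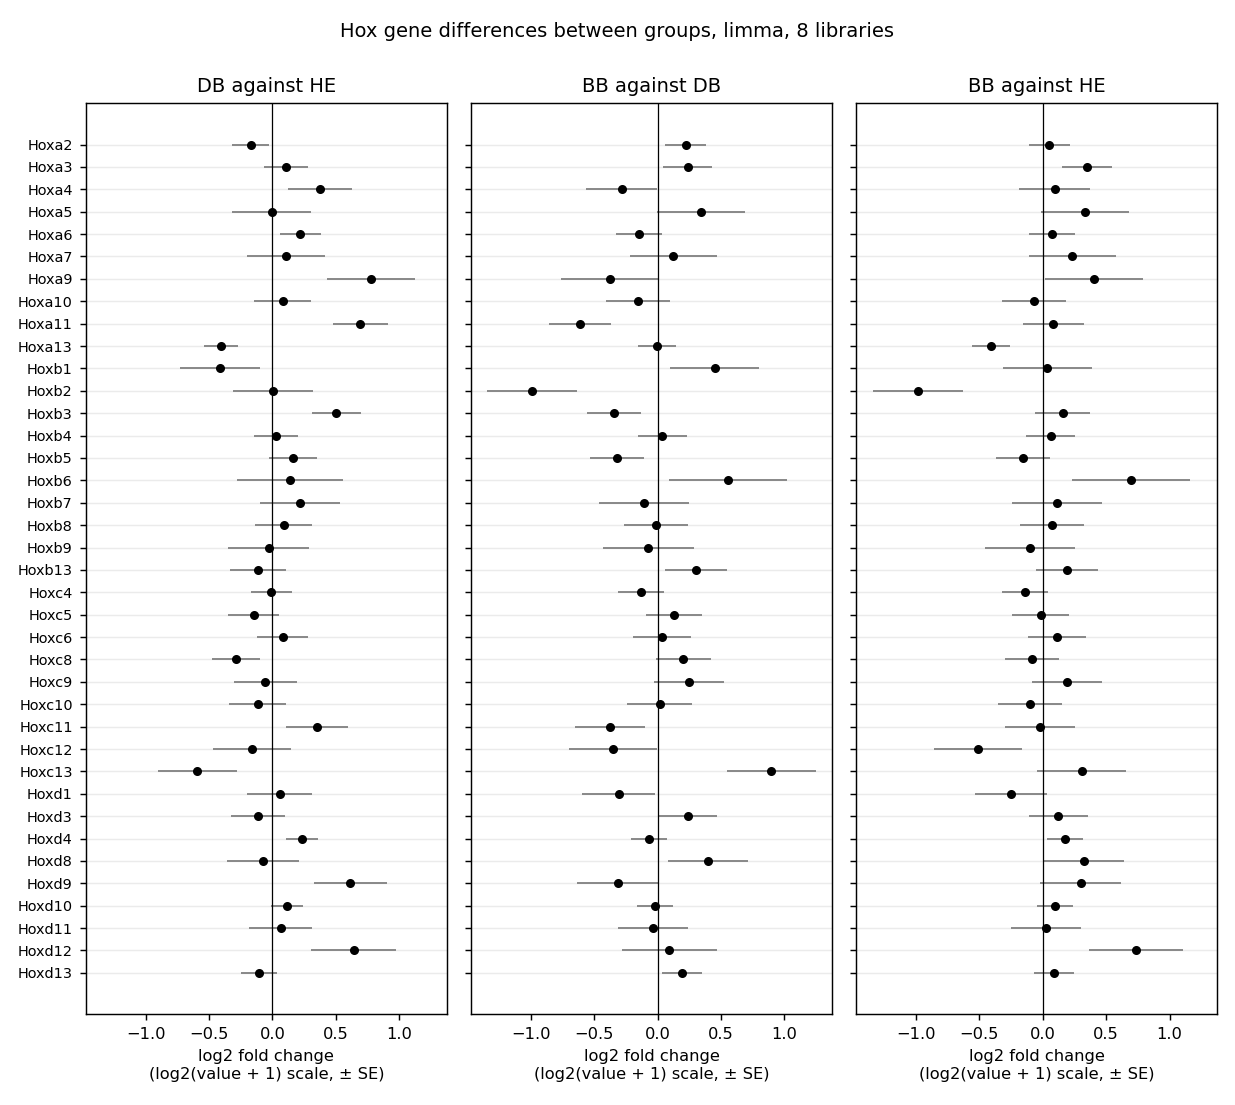
Differences between groups for 38 of the 39 Hox genes, as log2 fold changes on the log2(value + 1) scale, with bars of 1 standard error, in 3 panels for DB against HE, BB against DB and BB against HE (limma, 8 libraries). Most points lie within about 1 standard error of 0, and the 3 farthest are Hoxa9, Hoxa11 and Hoxd12 (0.78, 0.70 and 0.64) for DB against HE, Hoxb2, Hoxc13 and Hoxa11 (-0.99, 0.90 and -0.61) for BB against DB, and Hoxb2, Hoxd12 and Hoxb6 (-0.98, 0.73 and 0.70) for BB against HE, none of which passed the adjusted threshold.

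The calls for Hoxa11 and Hoxb3 turned on HE replicate 3. Without it, Hoxa11 rose in DB by a log2 fold change of 1.03 (adjusted p = 0.0028 in limma) and Hoxb3 by 0.81 (adjusted p = 0.0088 in limma), 2 of 39 where 1.3% of all genes passed. Hoxa13, also highest in HE replicate 3, went from -0.40 to -0.27 without it (adjusted p = 0.598 in limma). In this library 16.1% of reads fell on its 10 largest genes, against 11.5% and 10.2% in HE replicates 2 and 4, 17.8%, 19.2% and 17.8% in DB replicates 1, 2 and 6 and 13.8% and 14.0% in BB replicates 1 and 4. Hoxa11 and Hoxb3 were low in the 2 libraries with the smallest such share, intermediate in both BB libraries and high in the other 4. Hoxa4, a neck gene with 15.4, 31.3 and 16.4 in HE, 27.4, 25.1 and 26.2 in DB and 21.8 and 20.9 in BB, was arranged likewise and was picked with its values in view. Hoxa13 was not. Hoxa4, Hoxa11 and Hoxb3 are among the 14 members over 10 times the HE mean in BB replicate 8, where the share was 76.5%. So are Hoxa13 (34.7 times) and the steady Hoxb4 (82.0 times), so that these values do not set the 3 genes apart. The part of this share in the values was not tested.

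**Figure D4:**
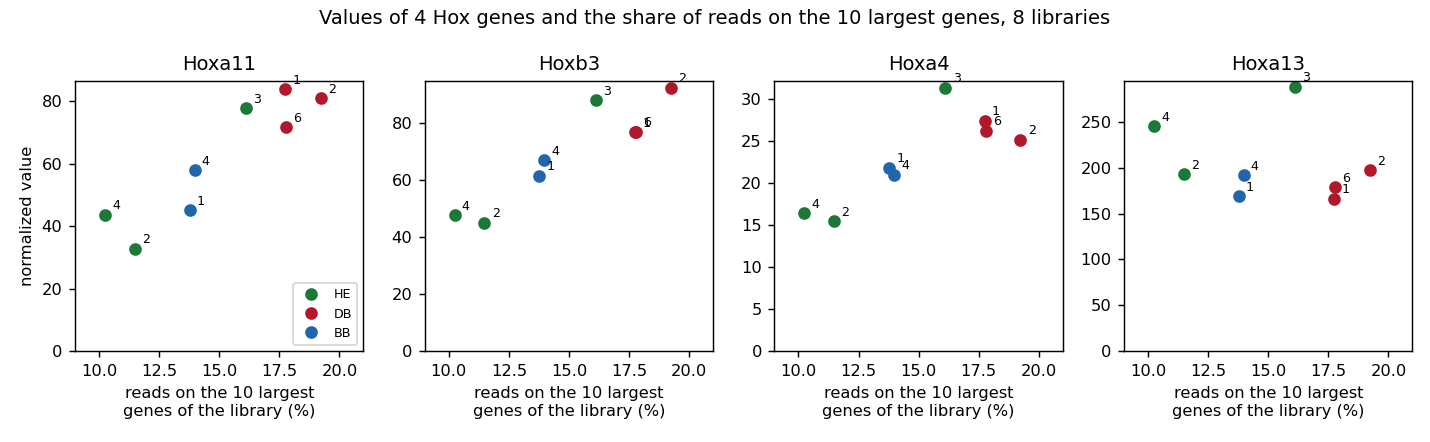
Normalized values of Hoxa11, Hoxb3, Hoxa4 and Hoxa13 against the percentage of reads on the 10 largest genes of each library, with 1 point per library (8 libraries, BB replicate 8 left out) numbered by replicate and coloured by group. The first 3 genes are lowest in HE replicates 4 and 2 (10.2% and 11.5%) and highest where the share is 16.1% or more, while Hoxa13 is highest in HE replicates 3 and 4.

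Between BB and DB, the comparison that asks about the extract, no Hox gene passed either. In limma 0 of 39 were called, and 0% of all genes were. At an unadjusted p under 0.05 limma gave 3 Hox genes (7.69%, against 4.95% of all genes), edgeR 3 as well (4.83% of all genes), and edgeR called 1 gene in all, 0.00369% and no Hox gene. Hoxb2, a regulator of the hindbrain, had the smallest p, with 14.1, 15.2 and 21.1 in HE, 18.3, 14.6 and 17.2 in DB and 4.67 and 12.9 in BB. Its log2 fold change was -0.99 (SE 0.36, limma adjusted p = 0.954). The low value of BB replicate 1 carries most of this difference, which was -0.34 without that library and -1.63 without BB replicate 4. Hoxc13, a gene of hair and nail, had 15.4, 11.8 and 8.58 in HE, 6.39, 6.48 and 9.72 in DB and 14.8 and 14.5 in BB. Both BB libraries lie above all of DB and inside the HE range (log2 fold change 0.90, SE 0.35, adjusted p = 0.959 in limma). Hoxa11 followed at -0.61 (SE 0.24, adjusted p = 0.959 in limma). The median over the 39 was -0.01 with 18 above 0, beside -0.0034 over all genes.

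The BB and DB libraries did not overlap for 13 Hox genes, or 33.3%, where 19.6% of all genes showed this. In BB 5 of them were higher (Hoxa5, Hoxb13, Hoxc13, Hoxd8 and Hoxd13, beside 9.04% of all genes) and 8 lower (Hoxa4, Hoxa9, Hoxa10, Hoxa11, Hoxb2, Hoxb3, Hoxb5 and Hoxc11, beside 10.5%). Several gaps are narrower than 1 read is worth. Hoxa10 had 22.6 and 20.1 in BB and no less than 22.7 in DB, and Hoxa5, a gene of lung and fat development, had 12.5 and 12.1 in BB and up to 11.96 in DB. Once BB replicate 8 was counted as a BB library, 7 of the 13 remained. Among these, Hoxb2 had 0 reads there and Hoxc11 and Hoxd8 had 1 read each, too few to place them. The share over all genes was not taken with this library.

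Between BB and HE again 0 of 39 Hox genes were called by limma or edgeR, beside 0.192% of all genes in limma (14 higher and 48 lower in BB) and 0.247% in edgeR. At an unadjusted p under 0.05 there were 2 Hox genes in each tool, against 6.86% of all genes in limma and 7.27% in edgeR. Hoxb2 (log2 fold change -0.98, SE 0.36, adjusted p = 0.563 in limma) and Hoxa13 (-0.41, SE 0.15, adjusted p = 0.581 in limma) had the smallest p, followed by Hoxd12 (0.73, SE 0.37, adjusted p = 0.761 in limma). The median was 0.08 with 26 above 0, beside -0.0011 over all genes. Groups did not overlap for 7 Hox genes, against 22.1% of all genes, with Hoxa3, Hoxc9, Hoxd4 and Hoxd12 higher in BB (10.3% of all genes) and Hoxa13, Hoxb2 and Hoxd1 lower (11.9%). The gap for Hoxa13 was narrow, from 191.65 in BB to 192.77 in HE. Hoxa13 and Hoxd12 differed from HE by nearly the same amount in DB and in BB, 2 comparisons that share the HE libraries. By cluster, the summed Hoxd value was 369 ± 18.0 (SD, n = 3) in HE, 402 ± 21.1 (SD, n = 3) in DB and 402 ± 8.45 (SD, n = 2) in BB, and the summed Hoxa value 559 ± 90.9, 545 ± 25.8 and 509 ± 22.7 with the same n. Hoxb had 244 ± 41.1, 265 ± 5.28 and 246 ± 21.5 and Hoxc 246 ± 14.0, 232 ± 5.99 and 238 ± 4.98.

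By normalized value, the Hox genes of BB replicate 8 ranged from no reads to far above their usual values. These folds depend on its factor, by which 1 read is worth 14.6. In reads, Hoxa13 had 574 against 182 to 341 in the other libraries, and Hoxa4 217 against 21 to 37. The library held 12267084 reads, against 2771967 to 3542749 elsewhere. All 39 together held 0.0235% of its reads, against 0.0541% to 0.0609% elsewhere. For 14 of 39 (35.9%) the value was over 10 times the HE mean, where 6.89% of all genes reached this. They were 6 Hoxa, 5 Hoxb, 1 Hoxc and 2 Hoxd genes, and 8 of the 14 were posterior, 4 central and 2 anterior members. Hoxa13 had 8400 there, Hoxa11 7492 and Hoxb3 7200. Hoxa4 had 3176, Hoxb4 3044, Hoxa10 2693, Hoxa9 2532, Hoxd11 1522 and Hoxc12 1419, and the other 5 (Hoxa5, Hoxb1, Hoxb5, Hoxb9 and Hoxd9) had 132 to 746. Relative to HE the largest was Hoxa4, at 151 times the mean. Hoxa5, at 13.6 times, was the nearest above 10 and Hoxc13, at 9.79 times, the nearest below. Another 18 had reads and stood at 0.421 to 9.79 times the HE mean.

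At the other end, 7 of 39 (17.9%) had no reads in BB replicate 8, where 46.6% of all genes had none. These were Hoxa2, Hoxa7, Hoxb2, Hoxb7, Hoxc5, Hoxc6 and Hoxd12. In this library 3 reads, which a count of 0 allows, are worth 43.9. By normalized value, the lack of reads thus does not exclude the usual level for 6 of the 7. This does not hold for the share of reads, since the 7 had 6 to 89 reads in each of the other, less deep libraries. Hoxa2, with a mean of 59.7 in the other libraries, lies above this limit. With BB replicate 8 in the fit, the median Hox log2 fold change was 0.60 for BB against DB and 0.58 for BB against HE, beside -0.51 over all genes in each, and limma called 0 Hox genes and 0% of all genes (2 and 1 Hox genes at an unadjusted p under 0.05, against 1.3% and 1.56% of all genes), as did edgeR.

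**Figure D5:**
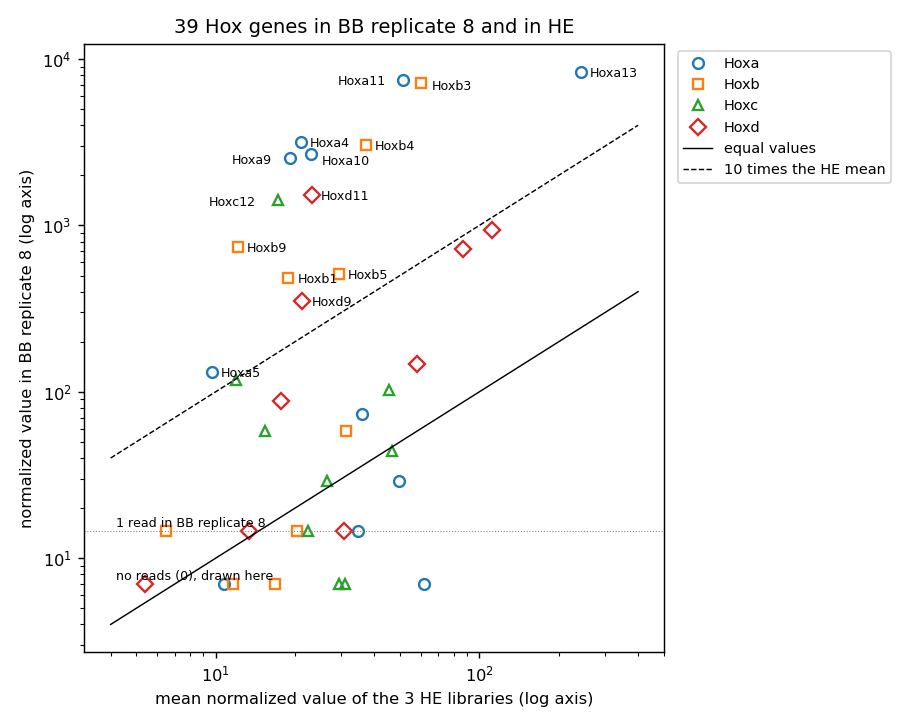
Normalized value in BB replicate 8 against the mean of the 3 HE libraries (log axes), with 1 symbol per Hox gene shaped by cluster, a solid line at equal values, a dashed line at 10 times the HE mean and a dotted line at the value of 1 read. The 14 named genes lie above the dashed line, up to 8400 for Hoxa13, and 7 genes without reads are drawn at the bottom.

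The members over 10 times the HE mean in BB replicate 8 were of mixed steadiness in the other 8 libraries. Their median ratio of variance to counting variance was 1.66 over 14 genes, of which 5 were at or below 1, against 1.08 over the other 25 Hox genes. Over all genes with as many reads the same split gave 1.59 (1655 genes) and 1.31 (22567 genes). This compares genes within libraries and has no test.

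Among genes that control or partner the Hox genes, 3 passed the test in a comparison. Polycomb proteins keep Hox genes silent outside their domain, and 2 of 19 measured members passed between DB and HE, beside 0.677% of all genes. Cbx2, a subunit that reads a repressive histone mark, rose from 132, 133 and 144 in HE to 260, 189 and 244 in DB (log2 fold change 0.74, SE 0.13, adjusted p = 0.0092 in limma), with 251 and 189 in BB and 43.9 in BB replicate 8. Pcgf2, a subunit of the same complex, fell from 141, 149 and 122 in HE to 81.3, 80.2 and 74.0 in DB (log2 fold change -0.79, SE 0.13, adjusted p = 0.0027 in limma), with 95.8 and 82.9 in BB. For both, no DB library overlaps HE. Neither passed with all 9 libraries or without the filter on low values (limma adjusted p = 0.219 for Cbx2 and 0.102 for Pcgf2), and Cbx2 also missed without HE replicate 4 or DB replicate 1 or 6 (limma adjusted p = 0.0506 to 0.088), while Pcgf2 passed whichever of the 8 libraries was left out. Retinoic acid switches on anterior Hox genes in the embryo, and 1 of 18 genes of its metabolism and receptors passed between BB and HE (0.192% of all genes), Rxrb, a partner of the retinoic acid receptors. It had 212, 198 and 205 in HE, 152, 155 and 138 in DB and 139 and 130 in BB, and fell in BB against HE (log2 fold change -0.60, SE 0.12, adjusted p = 0.0469 in limma). Its adjusted p between DB and HE was 0.0573 in limma, 0.0376 with voom and 0.0454 with at least 10 reads in every library. The call for BB was lost with TMM scaling (limma adjusted p = 0.0523), a pseudocount of 0.1 (0.0635), only the 2 groups (0.074) and no filter (0.29), in DESeq2 (0.135) and without any 1 library other than DB replicate 2, and its direction turned with BB replicate 8 (0.17).

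None of the following lists had a member past the threshold. They were 9 Pbx, Meis and Pknox genes, whose proteins bind DNA together with Hox proteins, 10 trithorax and histone H3K27 demethylase genes that keep Hox genes active, 6 ParaHox genes, Evx1 and Evx2, 18 head homeobox genes and 22 genes that mark depot position in fat. Between BB and DB no member of any list passed. Of the 1130 olfactory receptor genes 2 passed between DB and HE, both higher in DB, beside 0.677% of all genes. Among the cofactors Pknox1 had the smallest p between DB and HE, with 208, 247 and 225 in HE, 184, 177 and 185 in DB and 201 and 201 in BB. Its log2 fold change was -0.31 (SE 0.11, limma adjusted p = 0.283). Of the hepatocyte markers 2 of 22 passed between DB and HE, beside 0.677% of all genes, and 0 in the other comparisons. Alb, the serum albumin gene, fell from 486, 738 and 541 in HE to 263, 251 and 283 in DB (adjusted p = 0.000145 in limma) and Tf, which encodes transferrin, fell too (adjusted p = 0.0363 in limma, but 0.0556 in edgeR). Without any 1 of the HE or DB libraries Tf no longer passed, and neither gene did with all 9 libraries or without the filter on low values (limma adjusted p = 0.103 for Alb and 0.122 for Tf). None of the 24 adipocyte markers passed in any comparison. Their part in the values of the Hox genes was not tested.

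Of the microRNA genes in the clusters, those of miR-10 and miR-196 were at the floor. Mir10a, Mir10b, Mir196a, Mir196b and Mir196c had values of 0 to 5.48 in the 8 libraries and no reads in BB replicate 8. Mir615 was far above them, with 193, 214 and 187 in HE, 112, 160 and 126 in DB and 103 and 168 in BB. All HE libraries lie above all of DB and BB, but the gene did not pass (DB against HE log2 fold change -0.59, SE 0.16, adjusted p = 0.109 in limma, and BB against HE -0.59, SE 0.18, adjusted p = 0.39 in limma). The adjusted p for DB was 0.0404 in limma with only the HE and DB libraries, and 0.0418, 0.0483 and 0.0425 without DB replicate 2, BB replicate 1 and BB replicate 4. The BB difference was -0.24 without BB replicate 1 and -0.94 without BB replicate 4 (limma adjusted p = 0.852 and 0.0615). Between BB and DB the gene was not called, and the BB values of 103 and 168 lie on either side of the DB range. The study names Mir615 among the microRNAs whose expression changed with the extract, by its own test. In BB replicate 8 Mir615 had a normalized value of 29194, 147 times the HE mean. Hoxc5 and Hoxc6, whose spans hold the Mir615 sequence printed above, had 24.7 to 36.3 and 24.2 to 36.4 in the 8 libraries and no reads in BB replicate 8, so that the host genes did not share its values.

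Some Hox reads could not be assigned to 1 gene. Hoxa4, Hoxa5, Hoxa7, Hoxa9 and Hoxa11 each had exactly the same reads in all libraries as at least 1 other listed name. For Hoxa4 and Hoxa11 this was a second entry of the gene itself with a suffix, while Hoxa7 shared its reads with LOC100911622 and Hoxa5 with AABR07060585.1. Among the suffixed entries, which are not among the 39, Hoxa2.1 (mean 50.2) and Hoxa11.1 (82.3) had reads of their own. Whether counting used strand is not given in the sources used here, so reads of Hox genes and of antisense transcripts in the clusters cannot be told apart.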

How the data were processed

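RNA-seq of 9 libraries was analysed (3 HE, 3 DB, 3 BB) from 3 tables. The deposited value is a normalized signal, for which the authors divided the reads of a gene by 1 factor per library. Whole reads were recovered from the factor, and 100% of values came out whole within 0.1 reads. The aligner, counter and strand setting are not given in the labels or the methods. The submitters' processing notes list GRCm38 and mm10, which are mouse builds, although gene names are those of rat. The study's methods name a t-test, fold change and Benjamini-Hochberg adjustment.

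Groups were compared by limma 3.58.1 with trend in R 4.3.3 on log2(value + 1), in 1 fit of 3 groups without BB replicate 8 (5 residual degrees of freedom), over the 32371 genes whose mean reached 1 in any group. Fold changes on this scale understate those of low genes. In the files 25 rows hold dates where names belong, and 1194 share their reads with another row. Alternatives were edgeR 4.0.16, DESeq2 1.42.0 and voom on recovered reads, all 9 libraries, 2 groups only, TMM and upper-quartile scaling, no filter, 10 reads in every library, a pseudocount of 0.1 and each library left out. Scripts were tested on simulated data with a set spread. There limma recovered 57 of 100 2-fold changes and 99 of 100 4-fold changes between DB and HE, with 8 false calls. A lack of calls therefore does not exclude 2-fold changes. Genes shown in full are the 3 largest per cluster and those with the smallest p. Names and spans came from RefSeq GRCr8, which held 57.7% of all names. Of the 39 Hox genes 1 is not reported here singly, in text or figures by gene, but stays in counts and sums. The 13 cluster lncRNA names looked for matched no row. Members, lists and alternatives were chosen with earlier results of these data known.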

Additional observations from a re-analysis of the deposited data

Results flagged for a closer look

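In BB replicate 8, a library outside the group comparisons, 14 of the 39 Hox genes had values over 10 times the HE mean, from 13.6 times (Hoxa5) to 151 times (Hoxa4). The same was seen for 6.89% of all genes. The other 2 BB libraries had none of these values, as Hoxa4 had 21.8 and 20.9 there against 3176. The folds depend on the factor of BB replicate 8, where Hoxa4 had 217 reads against 21 to 37 in the other 8 libraries. All 39 together held 0.0235% of its reads, against 0.0541% to 0.0609% elsewhere.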

How the results depend on the processing

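The finding of 0 Hox genes past the threshold held in every comparison under every alternative run except DB against HE without HE replicate 3, where the range over left-out libraries was 0 to 2. Over all genes, the 219 calls for DB against HE became 0 with all 9 libraries (limma and edgeR, the latter chosen after seeing the data), 1 without a filter, and 59 to 420 when 1 library was left out (124, 420, 59, 79 and 85 without HE replicates 2, 3 and 4 and DB replicates 1 and 6). The 62 for BB against HE became 0 with all 9 libraries in both tools, 0 without a filter, and 26 to 76. The 0 for BB against DB became 5 with only these 2 groups, 1 with edgeR, 2 with DESeq2, 1 with TMM, 1 with upper-quartile scaling, and 0 to 19. Of the non-overlapping Hox genes, the 2 for DB against HE became 1 with TMM and 5 to 10 with a library left out, the 13 for BB against DB became 7 with all 9 libraries and 17 to 22, and the 7 for BB against HE became 4 and 10 to 17. Fewer libraries overlap less by construction. With all 9 libraries the median Hox value went from 25.5 to 43.3 (24.8 to 26.3 with 1 of the 8 left out) and the median percentile from 45.3 to 58.2 (44.6 to 46.1). The percentile was 70.0 per kb of span over all genes and 41.0 per kb over short coding genes. Reversed with BB replicate 8 were Hoxa11 in BB against DB (1.78 in limma, 4.99 in edgeR), Hoxa13 in BB against HE (1.44 and 3.59), Rxrb in BB against HE (0.17 and 0.53), Mir615 in BB against HE (2.01 and 5.63) and Hoxd12 in BB against HE (-0.40 in limma). Of the other values of single genes and medians, 340 kept their side of the threshold or, for medians, moved by less than the spread between libraries, 34 no longer passed, 8 passed and 4 moved. Among the 340, the Hox median changed sign to -0.0071 for DB against HE without HE replicate 2 and to 0.087 for BB against DB without BB replicate 1. The alternatives for Cbx2, Pcgf2, Rxrb, Pknox1, Mir615, Alb and Tf were chosen after seeing the data. No paired analysis was possible because the rats were divided into groups at random and the labels give no pairs. Depth limits the low members, since Hoxd12 and Hoxb6 rest on few reads per library. In BB replicate 8, the deepest library, a count of 0 allows a value of up to 43.9 because of its factor.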
